A study of Sorghum bicolor with 15 samples.

Results

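Sobic.001G208500 is a sorghum gene on chromosome 1, by its identifier, whose best Arabidopsis match is a beta-tonoplast intrinsic protein (beta-TIP) and whose best rice match is a putative aquaporin. It is 1 of 34129 genes in the count table, and it was chosen by its own level in these libraries, because earlier results showed it to be nearly lost in roots of SRN39 relative to Shanqui Red (SQR). The levels by genotype are therefore given as a description, without a test. Its neighbours are the other 24 genes with identifiers from Sobic.001G207500 to Sobic.001G209500, which were taken by position and not by their levels.

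Aquaporins are membrane channels that let water, and in some cases small uncharged solutes, cross a membrane. Plants have several branches of this family, and the tonoplast intrinsic proteins sit in the membrane around the vacuole, where they speed the exchange of water between the vacuole and the cytosol. Beta-TIP is known in Arabidopsis as a seed protein, found in the membrane of the vacuoles that store protein.

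The varieties were compared because they respond differently to Striga hermonthica, a weed that parasitizes roots. SQR, from China, is readily infected, and SRN39, from Sudan, carries the lgs1 deletion, has orobanchol as its main exuded strigolactone and resists the weed. Greenhouse plants of both varieties were grown in a plug of sterilized soil and then in sand, without added Striga. The sand was watered with a modified Hoagland solution low in phosphate. Whole roots were harvested at 28 and 35 d. They were read with 3′ mRNA-Seq, which reads a short stretch at the 3′ end of each captured transcript, and the reads were placed on the BTx623 reference genome. The varieties differ across the whole genome, so a difference between them cannot be assigned to the lgs1 deletion or to another allele from these data. There were 4 labelled biological replicates per group, except 3 for SQR at 35 d, although the study states 4 for each group.

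The 15 libraries held between 6369710 and 17304929 counts. Levels are CPM, the counts per 1000000 counts of a library after its size was scaled with the TMM method of edgeR. Of all genes, 18473 exceeded 1 CPM in 3 or more libraries and were tested. Genes with a Benjamini-Hochberg adjusted p under 0.05 in edgeR's quasi-likelihood test were called, and log2 fold changes are from that fit. Gene names come from the best Arabidopsis or rice matches of 413 genes that the study had called between genotypes. These are the first part of a longer list, 402 on chromosome 1 and 11 on chromosome 2, so a gene elsewhere has no name here, and marker genes of root, leaf and seed tissue were not analysed here. In whole roots, fewer cells of a type and less RNA per cell cannot be told apart. Whether sequence differences from the reference genome kept reads of a variety from being counted for a gene was not tested.

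In 28-day-old SQR roots, Sobic.001G208500 had 60, 104, 440 and 221 counts in replicates 1 to 4. In 28-day-old SRN39 roots it had 1, 3, 4 and 2. Every SQR library was thus far above every SRN39 library, although the SQR library with the fewest reads in total, replicate 4 with 6369710, held 221 of this gene. The level was 7.40, 8.33, 28.2 and 36.6 CPM in the SQR libraries, with a mean of 20.1 ± 14.6 CPM (SD, n = 4). In SRN39 it was 0.106, 0.309, 0.394 and 0.182 CPM, with a mean of 0.248 ± 0.129 CPM (SD, n = 4). The SRN39 mean was 1.23% of the SQR mean, a log2 ratio of -6.34. From the summed counts, 825 in SQR and 10 in SRN39, the SQR level was 78.7 times that of SRN39 (95% exact interval 42.6 to 165, which covers counting error only). The lowest SQR library was 18.8 times the highest SRN39 library.

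In 35-day-old roots the gene was again higher in each SQR library than in each SRN39 library, at lower SQR levels. SQR libraries had 34, 27 and 65 counts, or 2.60, 2.11 and 5.24 CPM, with a mean of 3.32 ± 1.69 CPM (SD, n = 3). SRN39 libraries had 3, 4, 4 and 3 counts, or 0.306, 0.321, 0.295 and 0.204 CPM, with a mean of 0.282 ± 0.0528 CPM (SD, n = 4). The SRN39 mean was 8.49% of the SQR mean, a log2 ratio of -3.56. The summed counts of 126 and 14 gave a ratio of 11.9 (95% exact interval 6.82 to 22.3, again for counting error only). The order of the group means was SQR at 28 d, SQR at 35 d, SRN39 at 35 d and SRN39 at 28 d, and only the last 2 had overlapping libraries.

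**Figure D1:**
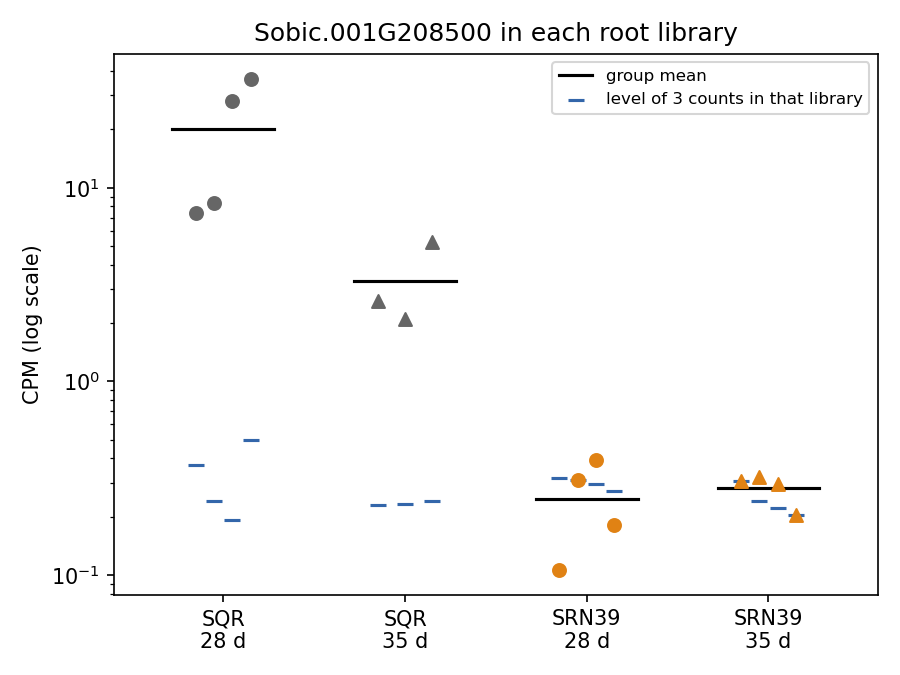
Level of Sobic.001G208500 in each of the 15 libraries, in CPM on a log axis, with SQR in gray, SRN39 in orange, circles for 28 d and triangles for 35 d. Black lines are group means and blue ticks the level that 3 counts would give in the same library; the SQR libraries lie between 2.11 and 36.6 CPM, and the SRN39 libraries, between 0.106 and 0.394 CPM, lie near those ticks.

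The SRN39 reads were few but present in all 8 libraries, with 1 to 4 counts each. At this depth, 3 counts amounted to between 0.204 and 0.317 CPM in SRN39, so the levels there were close to the limit of what these libraries can show. The summed counts gave 0.248 CPM at 28 d (95% exact Poisson interval 0.119 to 0.456) and 0.277 CPM at 35 d (0.152 to 0.465), for counting error only. The 2 intervals overlap almost wholly.

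The 28-day-old SQR libraries differed among themselves. Replicates 3 and 4, at 28.2 and 36.6 CPM, were well above replicates 1 and 2, at 7.40 and 8.33 CPM, and the highest was 4.94 times the lowest. The standard deviation of log2 CPM was 1.17, against a median of 0.25 over the 2454 genes whose mean log2 CPM in that group lay within 0.5 of it, and 99.3% of these genes varied less. Replicate 3 was the deepest library of the group and replicate 4 the shallowest, so the higher pair did not share a depth. At 35 d the standard deviation was 0.65, against a median of 0.46 over 2746 genes near its level, and 73% of them varied less.

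From 28 to 35 d the gene fell in SQR. All 3 libraries at 35 d, at 2.11 to 5.24 CPM, were below all 4 at 28 d, at 7.40 to 36.6 CPM, and the mean at 35 d was 16.5% of that at 28 d. The fitted log2 difference was -2.59 (standard error 0.5, 95% interval -3.65 to -1.54, adjusted p = 0.016 by edgeR), where edgeR called 2.6% of all genes between ages in SQR. The SQR libraries at 28 d also enter the genotype difference for which the gene was chosen, so this test is not independent of the choice. For the log2 CPM of this gene alone, a two-sided exact permutation test gave p = 0.0571, the smallest that 4 libraries against 3 allow. The call was lost without SQR replicate 4 at 28 d (log2 fold change -2.15, adjusted p = 0.061) and without SQR replicate 2 at 35 d (-2.35, adjusted p = 0.07), and the adjusted p ran from 0.00014 to 0.07 over 22 alternatives, all with the same direction.

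In SRN39 the fitted change with age was 0.16 on the log2 scale (standard error 0.87, 95% interval -1.68 to 1.99, adjusted p = 0.91 by edgeR), and the libraries of the 2 ages overlapped. The interval is wide because each library held 4 counts or fewer, and it does not show that the level was the same at both ages. The age effect in SRN39 minus that in SQR was 2.75 (standard error 1.02, 95% interval 0.61 to 4.90) and was not called (adjusted p = 0.11 by edgeR), where 7.34% of all genes were, 3.68% with a positive and 3.66% with a negative difference. DESeq2 called it, with an adjusted p of 0.03, and the adjusted p ran from 0.03 to 0.37 over the alternatives. This difference also shares the SQR libraries at 28 d with the choice of the gene.

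Among the 18473 genes tested, Sobic.001G208500 ranked 13 by the size of its fitted fall in SRN39 relative to SQR at 28 d, and 296 at 35 d. The gene was chosen for this difference, so its ranks are a description and no independent evidence. Its counts, at least 27 in every SQR library and at most 4 in every SRN39 library, were used to look for genes of the same kind. Including it, 18 genes met both limits, and 42 met them with the varieties exchanged. Of the 18, 3 lay on chromosome 1, where 3395 of the tested genes lie, and each of the 10 chromosomes held at least 1. In identifier order Sobic.001G208500 was the first of the 3 on its chromosome, and the next was 193 tested genes further on. None of its 24 neighbours was among the 18, but 11 of them were not tested and could not be. With only 18 of 18473 tested genes within the limits, finding none among the 13 tested neighbours is no result about them.

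The neighbours give the levels around the gene. Of the 24, 13 passed the filter and 11 did not, among them 4 without a count in any library. At 28 d, 2 of the 13 were called between genotypes, 1 lower and 1 higher in SRN39, where 17.4% of all genes were called, 8.74% lower and 8.65% higher. Their median log2 fold change was -0.11 against -0.04 over all genes tested. At 35 d 6 were called, 5 lower and 1 higher in SRN39, where 35.6% of all genes were called, 19.4% lower and 16.3% higher, with a median of -0.38 against -0.06. Of the 5, Sobic.001G207600 passed the filter through SQR libraries only. A neighbour that was not tested, Sobic.001G207633, had 0 to 3 counts in SQR at 28 d and 0 to 15 at 35 d. It had 0 in every SRN39 library, which allows up to 0.204 to 0.317 CPM in each (3 counts).

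The gene before it in identifier order, Sobic.001G208401, did not pass the filter. It had 0 to 5 counts in SQR and 2 to 3 in SRN39 at 28 d, and 4 to 8 and 1 to 6 at 35 d, so its level was low in both varieties. The nearest tested gene on that side, Sobic.001G208300, had a mean of 4.48 ± 1.15 CPM in 28-day-old SQR roots and of 4.80 ± 1.24 CPM in those of SRN39 (SD, n = 4 each). Its log2 fold change between genotypes was 0.08 at 28 d (adjusted p = 0.89) and -0.38 at 35 d (adjusted p = 0.31 by edgeR).

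The gene after it, Sobic.001G208600, was at 11.7, 11.0, 8.34 and 7.12 CPM in the SQR libraries at 28 d and at 4.44, 5.78, 8.57 and 6.37 CPM in those of SRN39, and these libraries overlapped. At 35 d it was at 17.9, 11.2 and 12.0 CPM in the SQR libraries and at 8.48, 5.93, 5.25 and 6.45 CPM in SRN39, without overlap. It was lower in SRN39 at 35 d, with a log2 difference of -1.08 (standard error 0.25, adjusted p = 0.0033 by edgeR), a call that all 22 alternatives kept. At 28 d the fold change was -0.60 (adjusted p = 0.1).

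Of the other neighbours called at 35 d, Sobic.001G208200 was lower in SRN39, at 5.16 ± 2.06 CPM in SQR (SD, n = 3) and 1.32 ± 0.75 CPM in SRN39 (SD, n = 4; log2 fold change -1.95, adjusted p = 0.0096 by edgeR). Sobic.001G207600 was near the limit of detection, at 0.782 ± 0.276 CPM in SQR (SD, n = 3) and 0.108 ± 0.0879 CPM in SRN39 (SD, n = 4; log2 fold change -2.64, adjusted p = 0.009 by edgeR). Neither was called at 28 d (adjusted p = 0.14 and 0.29). Sobic.001G207600 passed the filter through SQR libraries only, since no SRN39 library exceeded 1 CPM (highest 0.825 CPM). Its call at 35 d is therefore not independent of the filter, and it was tested in only 19 of 22 alternatives. Sobic.001G208000 was higher in SRN39 at 35 d by 0.72 on the log2 scale (adjusted p = 0.019 by edgeR). That call was lost without SQR replicate 1 (0.51, adjusted p = 0.088) or SRN39 replicate 1 (0.63, adjusted p = 0.053) of that age. Sobic.001G208700 was lower by a log2 fold change of -0.48 (adjusted p = 0.049 by edgeR), and 20 of 22 alternatives did not call it, at adjusted p from 0.032 to 0.24 over all 22.

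**Figure D2:**
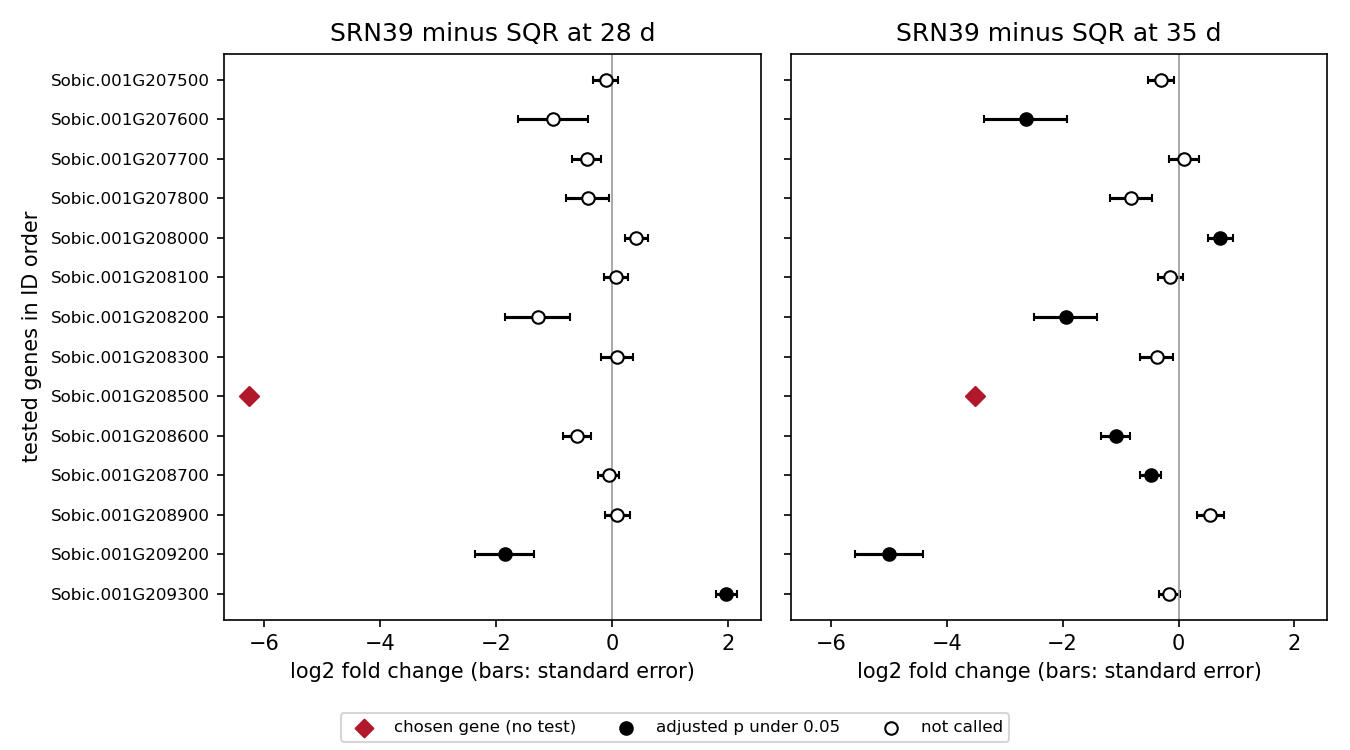
Fitted log2 fold changes between genotypes at 28 d (left) and 35 d (right) for Sobic.001G208500 (red diamond, no test) and the 13 tested neighbours in identifier order, with standard errors as bars. Filled circles are called and open circles are not; 2 neighbours are called at 28 d and 6 at 35 d, those not called reach -1.28 at 28 d and -0.82 at 35 d, and the chosen gene is at -6.27 and -3.52.

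A pair of adjacent neighbours have the same best Arabidopsis match, a member of the plant basic secretory protein family, secreted proteins that have been studied in defence against pathogens. They are named because the study had called them between genotypes on these samples, so their differences between genotypes are not independent evidence at either age. Sobic.001G209200 was at 156.8, 74.1, 108.5 and 78.5 CPM in the SQR libraries at 28 d and at 14.8, 23.1, 56.1 and 21.8 CPM in those of SRN39. All SRN39 libraries were lower, with a fitted log2 difference of -1.85 (standard error 0.51, adjusted p = 0.016 by edgeR). That call was lost without SQR replicate 1 (-1.58, adjusted p = 0.056) or without SRN39 replicate 1 (-1.63, adjusted p = 0.059), 2 (-1.75, adjusted p = 0.052) or 4 (-1.73, adjusted p = 0.054) of that age.

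At 35 d Sobic.001G209200 was at 194, 667.3 and 86.7 CPM in the SQR libraries and at 8.68, 14.2, 7.02 and 9.51 CPM in SRN39. The difference was -5.00 on the log2 scale (standard error 0.59, adjusted p = 7e-06 by edgeR), and it was -3.83 (adjusted p = 9.4e-06) without SQR replicate 2, the library at 667.3 CPM. In SRN39 the gene fell with age, from 29.0 ± 18.5 to 9.85 ± 3.07 CPM (SD, n = 4 each; log2 fold change -1.55, adjusted p = 0.031 by edgeR), where 30.9% of all genes were called, 15.7% higher and 15.2% lower. That call was lost without SRN39 replicate 3 at 28 d (-1.01, adjusted p = 0.13), which had 56.1 CPM, and without SRN39 replicate 1, 3 or 4 at 35 d (adjusted p = 0.065, 0.08 and 0.071). It was also lost with limma-voom (adjusted p = 0.065), library totals (0.074) and thinning to the smallest library (0.05). In SQR the change with age was 1.60 (adjusted p = 0.093) and the libraries overlapped.

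Sobic.001G209300 had the opposite difference at 28 d. It was at 22.0, 18.7, 28.0 and 15.6 CPM in the SQR libraries and at 83.5, 86.2, 75.3 and 87.1 CPM in SRN39, which was 1.97 higher on the log2 scale in SRN39 (standard error 0.18, adjusted p = 2.4e-07 by edgeR). At 35 d it was at 37.0, 43.4 and 39.5 CPM in the SQR libraries and at 41.7, 31.3, 38.8 and 31.5 CPM in SRN39, and the varieties overlapped (-0.16, standard error 0.18, adjusted p = 0.52). It rose with age in SQR by 0.92 (adjusted p = 0.018) and in SRN39 it fell by 1.21 on the log2 scale (adjusted p = 0.00015 by edgeR). With 1 library left out, the rise in SQR was lost without SQR replicate 4 at 28 d (0.80, adjusted p = 0.065) or SQR replicate 2 at 35 d (0.85, adjusted p = 0.06), while the fall in SRN39 was called under all 22 alternatives. Whether these 2 genes are similar enough in sequence to affect how their reads were counted was not tested.

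Among the 13 tested neighbours, 1 was called between ages in SQR, Sobic.001G209300, which rose, where 1.07% of all genes were called higher. In SRN39 3 of the 13 were called, against 30.9% of all genes, 1 higher and 2 lower. The age effects of 2, Sobic.001G209200 and Sobic.001G209300, differed between the varieties, with a negative difference, where 7.34% of all genes were called and 3.66% with a negative difference. Besides these in SRN39, Sobic.001G208900, rose from 5.68 ± 1.17 CPM at 28 d to 10.9 ± 1.94 CPM at 35 d (SD, n = 4 each), or by 0.95 on the log2 scale (standard error 0.22, adjusted p = 0.0041 by edgeR). In SQR it changed by 0.49 (adjusted p = 0.22), and its SQR libraries at the 2 ages overlapped. None of the neighbours was called lower with age in SQR by edgeR, where Sobic.001G208500 fell and where 1.53% of all genes were called lower.

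Among the 413 named genes, nearly all on chromosome 1, there was 1 other aquaporin, and the rest of the family was not analysed here. Sobic.001G195800 has NOD26-like intrinsic protein 5;1 as its best Arabidopsis match, a channel for boric acid at the plasma membrane of Arabidopsis roots. It too is named because the study had called it between genotypes on these samples. At 28 d it was at 718, 446.8, 415.2 and 500.4 CPM in the SQR libraries and at 1047.4, 1718.5, 819.4 and 991.5 CPM in SRN39. All SRN39 libraries were higher, by 1.14 on the log2 scale (standard error 0.25, adjusted p = 0.003 by edgeR), so this aquaporin differed between the varieties in the direction opposite to Sobic.001G208500.

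At 35 d Sobic.001G195800 was at 242.7, 220.7 and 259.6 CPM in the SQR libraries and at 816.8, 813.4, 1017.9 and 538.3 CPM in SRN39, which was 1.72 higher on the log2 scale in SRN39 (standard error 0.28, adjusted p = 0.00015 by edgeR). With age in SQR it fell by 1.11 on the log2 scale (standard error 0.27, adjusted p = 0.042), as Sobic.001G208500 did. That call was lost in 10 of 22 alternatives, at adjusted p from 0.0028 to 0.11, among them limma-voom and the fits without SQR replicate 1 or 4 at 28 d, SQR replicate 1 or 2 at 35 d, SRN39 replicate 1 or 4 at 28 d, or SRN39 replicate 1 or 2 at 35 d. In SRN39 the change was -0.52 (adjusted p = 0.11), and the libraries of the 2 ages overlapped.

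Since beta-TIP is a seed protein in Arabidopsis, genes of seed maturation were looked for among the same 413 names, and 1 was found. Those elsewhere in the genome were not analysed here. Sobic.001G492000 matches an Arabidopsis protein with a late embryogenesis abundant (LEA) domain and a rice embryonic protein. LEA proteins gather late in seed development and when tissue dries. This gene was also named through the study's calls on these samples. At 28 d it was at 89.7, 40.1, 319.2 and 67.1 CPM in the SQR libraries and at 4.44, 5.57, 25.7 and 10.7 CPM in SRN39, and no SRN39 library reached the lowest of SQR. The fitted log2 difference was -3.47 (standard error 0.68, adjusted p = 0.0012 by edgeR), and it was -2.48 (adjusted p = 0.0054) without SQR replicate 3, which had 319.2 CPM, and -4.20 (adjusted p = 0.00054) without SRN39 replicate 3.

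At 35 d Sobic.001G492000 was at 7.80, 5.38 and 2.74 CPM in the SQR libraries and at 9.09, 27.4, 7.17 and 23.5 CPM in SRN39. These libraries overlapped, and the difference was 1.66 on the log2 scale (adjusted p = 0.086 by edgeR). With age in SQR it fell by 4.60 on the log2 scale (standard error 0.81, adjusted p = 0.011). The difference was -3.62 (adjusted p = 0.021) without SQR replicate 3 at 28 d, and the call was lost without SQR replicate 2 at 35 d (-4.61, adjusted p = 0.054). In SRN39 it changed by 0.53 (adjusted p = 0.55). Unlike Sobic.001G208500, it therefore kept a level of 7.17 CPM or more in 35-day-old SRN39 roots. Within 28-day-old SQR roots both genes were high in replicate 3, while replicate 4, the highest for Sobic.001G208500, was not raised for Sobic.001G492000.

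**Figure D3:**
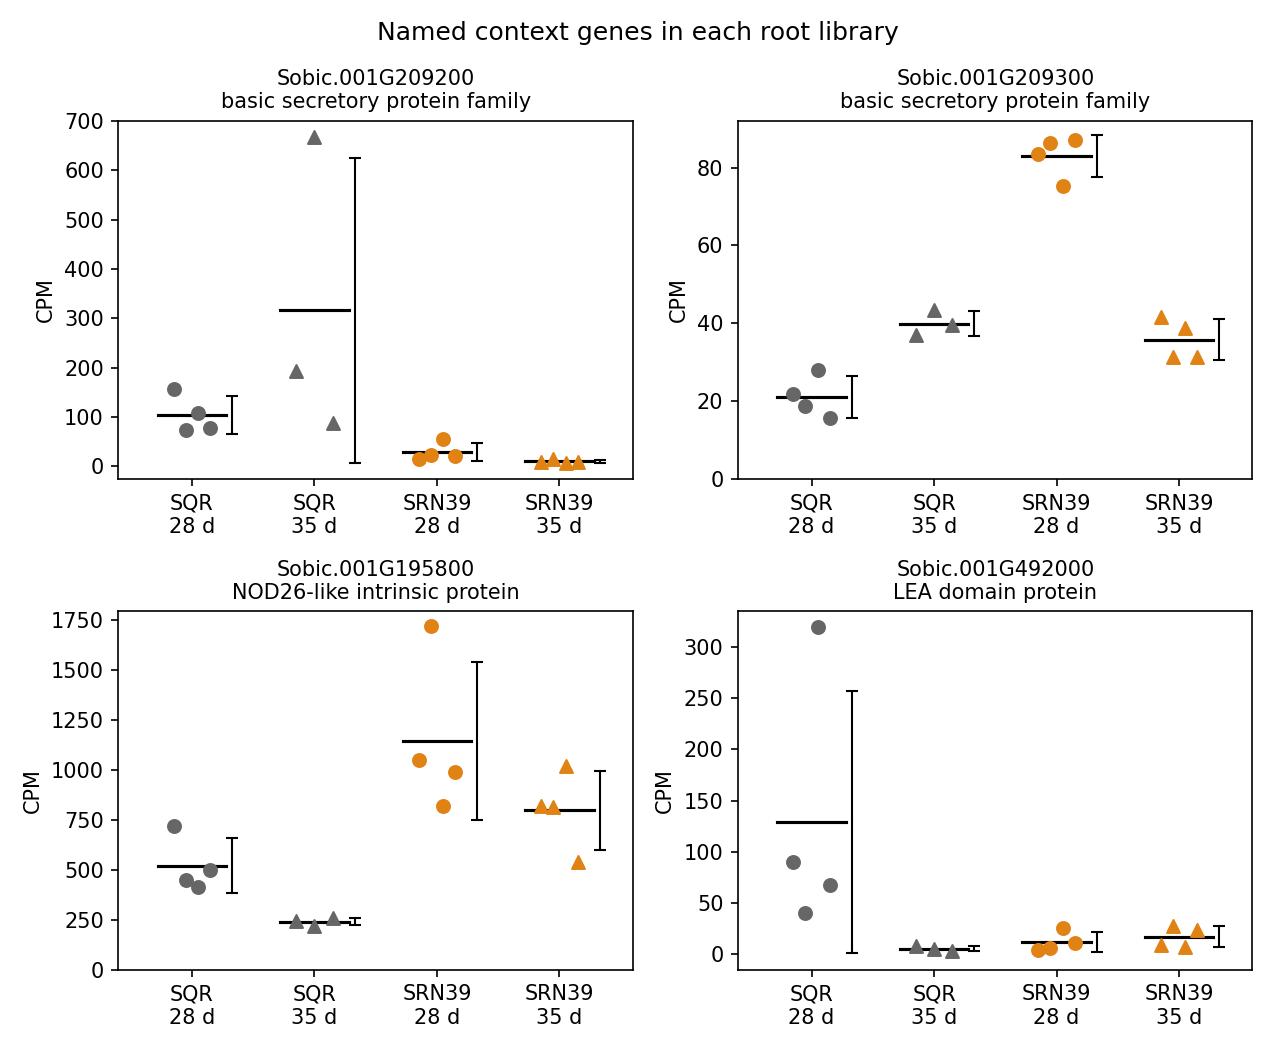
CPM of the 2 basic secretory protein genes, the NOD26-like intrinsic protein gene and the LEA domain gene in each library, with SQR in gray, SRN39 in orange, circles for 28 d and triangles for 35 d; lines are means and bars 1 SD. Mean levels of Sobic.001G209300 were 83.0 CPM in SRN39 and 21.0 CPM in SQR at 28 d. At 35 d they were 35.8 and 40.0 CPM, and the libraries overlapped. Sobic.001G195800 is higher in SRN39 at both ages.

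Genes with the most similar pattern were looked for with the root mean square difference of log2 CPM profiles, each centred on its own mean. Over all 15 libraries the nearest was Sobic.005G142200, at 0.79, against a median of 2.37 over all genes. It had 6 to 55 counts in SQR libraries and 0 to 2 in SRN39 libraries. Over the 7 SQR libraries alone the nearest was Sobic.009G209400, at 0.50 against a median of 1.48, with 4 to 20 counts at 28 d and 0 to 5 at 35 d. Neither gene was the nearest with a prior count of 0.5, and with quantile normalization only Sobic.005G142200 was. Both were read at low counts, and neither is paired with a name in the sources used here. The other 4 genes among the nearest 3 by either measure have no name there either and are not printed. Of the 413 named genes, which leave most of the genome without names, the nearest over all libraries was Sobic.001G484000, which matches an alpha/beta-hydrolase and ranked 21 at 0.93. Over the SQR libraries it was Sobic.001G056100, an AUX/IAA regulator of the auxin response, which ranked 28 at 0.81. These 2 were chosen after their values were seen. Likeness over all 15 libraries also rests on the genotype difference for which Sobic.001G208500 was chosen.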

How the data were processed

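QuantSeq 3′ mRNA-Seq libraries had been made from SQR and SRN39 roots of 28 and 35 d. The authors pooled technical replicates, trimmed reads with fastx-trimmer and reaper, mapped them to the BTx623 genome with STAR and deposited whole-number counts per gene, without normalization. Neither the versions of STAR and the annotation nor the strand setting was given in the sources used. The table has 1 further column, named like those of SQR at 35 d, that matches no sample label and was not used.

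The 15 libraries were grouped by the sample labels. The tools were DESeq2 1.42.0, edgeR 4.0.16 and limma 3.58.1, run in R 4.3.3. The 4 groups entered one quasi-likelihood fit of edgeR over 18473 genes (more than 1 CPM in at least 3 libraries, TMM scaling), with Benjamini-Hochberg adjustment over all of them, two-sided, at 0.05. Log2 CPM used a prior count of 2. Standard errors are the log2 fold change over the square root of its F statistic. Alternatives were DESeq2, limma-voom on quantile-normalized values, a replicate block, no filter, library totals, RLE size factors, thinning to the smallest library (seed 20210819) and leaving out each library.

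The gene, its neighbours and the lists were chosen with earlier results of these data known. Named are the chosen gene, all neighbours that a result turns on, the aquaporin and seed maturation genes among the names held, and the genes most like the chosen one, of which few are printed because the sources pair no names with them. A RefSeq table was at hand, but it does not hold these identifiers, so no coordinates or sequences are given.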

Additional observations from a re-analysis of the deposited data

Results flagged for a closer look

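Among 22 genes and their 66 groups of 4 libraries, 2 groups had a library far from the other 3. For normally distributed values chance alone gives about 1 in 20, so 2 of 66 is no excess. In 35-day-old SRN39 roots replicate 3 had 4.14 CPM of Sobic.001G207500 against 5.61 to 5.91 CPM in the others, and the same library had 0.148 CPM of Sobic.005G142200, from 2 counts, against 0 in the others. The rate of 1 in 20 does not hold for Sobic.005G142200, because any group with counts in a single library is flagged.

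The age effect differed between the varieties, by edgeR's interaction test, for 5 of the 22 genes, where 7.34% of all genes were called. The 22 include 6 genes picked for a profile like that of Sobic.001G208500, of which 2 are among the 5, so the count is no result about them. For Sobic.001G209200 the effect in SRN39 minus that in SQR was -3.15 (adjusted p = 0.017), and it was -1.98 (adjusted p = 0.043) without SQR replicate 2 at 35 d, which had 667.3 CPM. A replicate block ended the call (-2.87, adjusted p = 0.06). For Sobic.001G209300 it was -2.13 (adjusted p = 0.0006). For the LEA domain gene Sobic.001G492000 it was 5.13 (adjusted p = 0.0072), 4.16 (adjusted p = 0.0093) without SQR replicate 3 and 5.88 (adjusted p = 0.0047) without SRN39 replicate 3 at 28 d. For 2 unnamed genes whose profiles are close to that of Sobic.001G208500 it was 1.46 (adjusted p = 0.039) and 2.78 (adjusted p = 0.025). The first call was lost in 12 of 22 alternatives (adjusted p up to 0.086), namely limma-voom and the fits without any 1 library of SQR at 28 d, of SRN39 at 35 d, or replicate 1, 2 or 4 of SRN39 at 28 d. The second was lost in 4 of 22 (adjusted p up to 0.062), namely limma-voom and the fits without SQR replicate 3 or 4 at 28 d or SRN39 replicate 3 at 35 d.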

How the results depend on the processing

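For Sobic.001G208500 the log2 ratio of SRN39 to SQR kept its sign under all alternatives, between -6.88 and -5.89 at 28 d and between -3.80 and -3.06 at 35 d. Its fall with age in SQR was between -3.08 and -2.15 with 1 library left out. Its age difference in SRN39, from 4 counts or fewer a library, was -0.14 with limma-voom and between -0.06 and 0.46 with 1 library left out. The interaction was 2.77 with DESeq2. With 1 library left out, between 1 and 3 neighbours were called between genotypes at 28 d and between 0 and 2 between ages in SQR, and between 0 and 1 aquaporin gene and seed maturation gene between ages in SQR and seed maturation gene between genotypes at 35 d. Limma-voom called 0 aquaporin genes between ages in SQR. The labels do not say whether libraries with the same replicate number were handled together. Same-numbered libraries had correlations between -0.22 and 0.17 after group means were removed. Of the 15 libraries, 2 correlated best with their own number, and these values do not settle the question. With the replicate block 0 neighbours and 0 aquaporin genes were called between ages in SQR. The block also ended the rise with age of Sobic.001G209300 in SQR (0.89, adjusted p = 0.057), the interaction call of Sobic.001G209200 (-2.87, adjusted p = 0.06) and the call of Sobic.001G208700 at 35 d (-0.50, adjusted p = 0.058). Of the 10 genes most like Sobic.001G208500 over all libraries, 4 were among the 10 nearest with a prior count of 0.5 and 4 with quantile normalization, and over SQR libraries 6 with quantile normalization. Of 31 calls of named or similar genes, 19 held under all alternatives run, and none of the 672 refits reversed one. Depth limits every SRN39 value of Sobic.001G208500.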
